A study of Mus musculus with 8 samples.

Results

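The vessels of the retina were followed through 10 marker genes, 9 of endothelial cells (Tie1, Tek, Emcn, Pecam1, Flt1, Kdr, Cdh5, Cldn5 and Vwf) and 1 of pericytes (Pdgfrb). Every probe set that the platform annotation gave to these genes alone was taken, which came to 15 of the 45037 probe sets tested: 4 for Flt1, 2 each for Cdh5 and Pdgfrb and 1 for each of the others. Retinas were taken from mice (strain label BALB/c AJ) at postnatal day 40, kept under a 12 h light and 12 h dark cycle. They are described as dissected away from the pigment epithelium, whose genes are given below. The groups were wild type (wt/wt, 3 arrays), heterozygous for an Nxnl1 null allele (ko/wt, 2 arrays) and homozygous null (ko/ko, 3 arrays), and every group shared the strain, age and housing. Whether the groups were also matched for sex was not tested. Nxnl1 is expressed in photoreceptors and encodes a thioredoxin-like protein, rod-derived cone viability factor. Neither the allele's construction nor the number of animals behind each group is stated in the labels. The p-values therefore measure only how far these samples spread, a spread that may be technical.

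The inner retina is fed by capillary layers whose endothelial cells are sealed by tight junctions and wrapped by pericytes, and together with glia they form the inner blood-retina barrier. Endothelial growth and quiescence are set by receptor tyrosine kinases, chiefly the VEGF receptors Flt1 and Kdr and the angiopoietin receptor system Tek and Tie1, while PDGF-B made by endothelium holds pericytes through Pdgfrb. In photoreceptor degenerations the deep capillary layers are known to thin as oxygen use by photoreceptors declines. A vessel marker in RNA of whole retina comes from a small share of the cells, and fewer cells of a type and less RNA per cell cannot be told apart in such bulk samples.

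Expression is given as log2 values (RMA), on which a difference of 1 is a doubling. The target gene itself went against the label on 2 arrays: the brighter probe set of Nxnl1 read between 8.65 and 9.22 among wild-type arrays, at 8.65 and 6.75 where the label is heterozygous 1 and 2, and at 6.13, 8.76 and 6.13 where it is homozygous 1, 2 and 3. The comparisons of the member list, and the members that moved most, are therefore also given without heterozygous array 2 and homozygous array 2. Heterozygous array 1, kept in those fits, also read at the wild-type level. Its second Nxnl1 probe set was at 6.79, against 6.21 to 6.76 in wild type. RNA quality was read from actin: the 5' control probe set minus the 3' one, lower where RNA is more degraded, was -1.81 on wild-type array 1 and -1.74 on homozygous array 1, against -1.26 to -0.69 on the other 6. The 8 measured rod photoreceptor genes averaged 13.21 to 13.41 on every array, near the upper end of the scale. At the lower end, the 27 control probe sets for Bacillus genes, which match no mouse transcript and for which added RNA is not recorded in the sources used here, had means with a median of 3.23, and the 3 highest were 3.64, 4.14 and 4.97.

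All 9 endothelial markers had their highest value on an array of the homozygous group, 7 of them on array 1, with Pecam1 highest on array 2 and Flt1 on array 3. Over all genes these arrays were the highest of the 8 for 34.7%, 12.1% and 8.97%. The mean level of the 9 endothelial markers was 6.19, 5.83 and 5.87 on the homozygous arrays, 5.75, 5.78 and 5.79 on the wild-type arrays and 5.97 and 5.79 on the heterozygous arrays. In this mean the homozygous arrays lay above the wild-type arrays without overlap, arrays 2 and 3 by little and array 1 by more. That separation rested on Tie1, which reads low on the scale and whose homozygous arrays all lay above wild type. With Tie1 taken out of the mean, homozygous array 2 lay below wild-type array 3 and the groups overlapped. In a wider list of 29 endothelial genes the groups overlapped, with homozygous array 3 at 6.05, below the lowest wild-type array at 6.10. The array labelled homozygous 2 is one with Nxnl1 at the wild-type level. Across all 10 genes, homozygous array 1 lay above the mean of the other 7 arrays for 10 of 10 at the brightest probe set of each, by a median of 0.33, and it was the highest of all 8 arrays for 7 of 10. Over all 18193 genes it was the highest array for 34.7% and lay above the others for 67.2%, by a median of 0.09. The array labelled homozygous 1 is 1 of the pair with the lowest actin difference, and the other is wild-type array 1. That array was the highest for 1 of the 10 members, Pdgfrb, and for 15.7% of all genes. On wild-type array 1, 2 of 10 members lay above their own 8-array mean, against 4 on each of the other wild-type arrays. The share of all genes above their mean was not computed for these arrays.

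**Figure D1:**
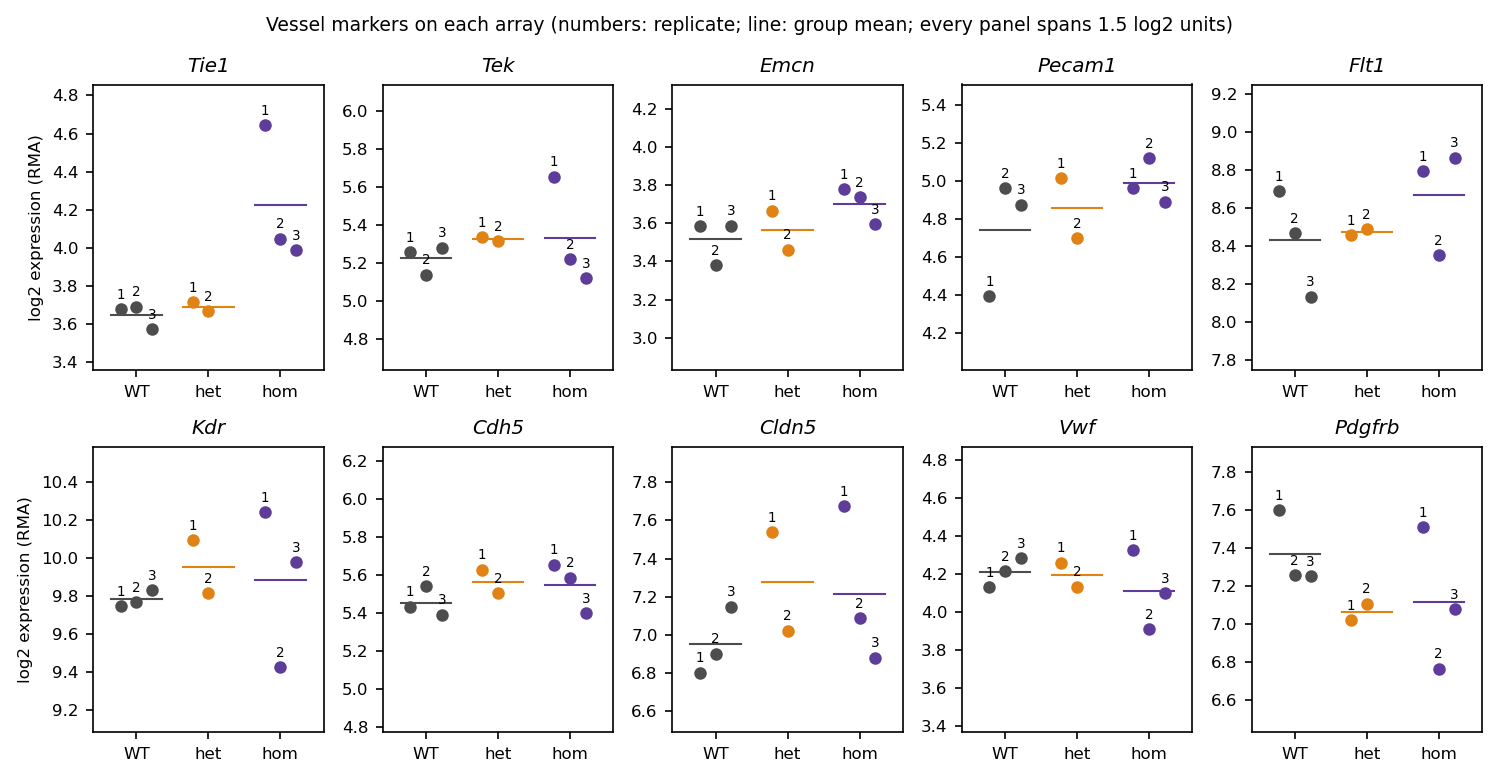
Log2 expression (RMA) of the 10 vessel markers on the 8 arrays, at the brightest probe set of each gene. Points are arrays numbered by replicate, lines are group means, and each panel spans the same height. Homozygous array 1 is the highest point for Tie1, Tek, Emcn, Kdr, Cdh5, Cldn5 and Vwf.

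Promoters of the members could be read for 6 of 10 genes, Tie1, Tek, Emcn, Flt1, Kdr and Cldn5, from RefSeq on GRCm38.p6. Those of Tie1, Tek, Kdr and Cldn5 are shown because these 4 genes had the largest excess of homozygous array 1 over the mean of the other 7 arrays, at 0.88 for Tie1, 0.62 for Cldn5, 0.43 for Kdr and 0.42 for Tek. The 250 bases before the start of each gene are given 5' to 3' on the gene's own strand, chr4:118489850-118490099 on the minus strand for Tie1, chr4:94739039-94739288 on the plus strand for Tek, chr5:75978456-75978705 on the minus strand for Kdr and chr16:18776597-18776846 on the plus strand for Cldn5. Capitals mark GGAAG on either strand (CTTCC when read on the other). It is 1 longer form of the GGAA core recognised by ETS factors, which are known regulators of endothelial genes.
Tie1: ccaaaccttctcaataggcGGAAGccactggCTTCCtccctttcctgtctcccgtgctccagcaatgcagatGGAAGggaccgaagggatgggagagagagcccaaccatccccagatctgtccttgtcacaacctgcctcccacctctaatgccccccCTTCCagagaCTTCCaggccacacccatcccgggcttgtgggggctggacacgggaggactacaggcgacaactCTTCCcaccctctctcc
Tek: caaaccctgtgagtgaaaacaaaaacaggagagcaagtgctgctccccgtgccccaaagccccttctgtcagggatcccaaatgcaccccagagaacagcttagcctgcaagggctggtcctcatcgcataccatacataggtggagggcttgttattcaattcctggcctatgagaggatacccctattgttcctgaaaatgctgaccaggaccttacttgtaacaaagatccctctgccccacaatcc
Kdr: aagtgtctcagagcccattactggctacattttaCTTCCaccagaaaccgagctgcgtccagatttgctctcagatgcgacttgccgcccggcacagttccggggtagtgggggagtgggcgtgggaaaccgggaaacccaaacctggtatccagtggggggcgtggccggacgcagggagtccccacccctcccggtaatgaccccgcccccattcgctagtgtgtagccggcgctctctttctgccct
Cldn5: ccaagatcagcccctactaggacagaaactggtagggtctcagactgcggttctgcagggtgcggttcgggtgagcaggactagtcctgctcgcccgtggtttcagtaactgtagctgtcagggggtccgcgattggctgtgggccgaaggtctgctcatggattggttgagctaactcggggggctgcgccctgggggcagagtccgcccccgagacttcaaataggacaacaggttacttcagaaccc
Copies of GGAA without the last G were not marked or counted, and the Tek and Kdr windows hold some. The 5-base form was found 6 times before Tie1, 1 time before Kdr and not in these windows before Tek and Cldn5. It was also found before Emcn (2 times) and Flt1 (3 times), so 4 of 6 members held it, against 64.1% of 32851 promoters of the same length. The TATA box, searched as TATAAA, was present before Flt1 only, against 12.4% of all promoters. The GATA factor motif was searched as TGATAA and was before none of the 6, against 7.94%. All 3 motifs were searched on both strands, the matches in Flt1 did not overlap, and a match is a description of the sequence and not a bound site.

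Tie1 and Tek form the angiopoietin receptor system: Tek binds the angiopoietins, and Tie1 is a partner receptor without a well established ligand of its own. Tie1 gave 3.68, 3.69 and 3.57 on the wild-type arrays, 3.71 and 3.67 on the heterozygous arrays, and 4.64, 4.05 and 3.99 on the homozygous arrays. The 3 homozygous arrays lay above all 5 others, and array 1 stood well above its 2 companions. Means were 3.65 ± 0.07 (SD, n = 3) for wild type and 4.23 ± 0.36 (SD, n = 3) for homozygous retinas, which gives a log2 difference of 0.58 (SE 0.17, 95% interval 0.20 to 0.96) or 1.49-fold, with an unadjusted limma p of 0.00813 and an adjusted p of 0.9999. Of 45037 probe sets, 411 (0.913%; 0.535% higher and 0.377% lower) had an unadjusted p under 0.05 in this comparison, and limma called 0 (0%) after adjustment. Without homozygous array 1 the difference was 0.37 (SE 0.10), and without heterozygous array 2 and homozygous array 2 it was 0.67 (SE 0.20).

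Tie1 lay low on the scale, and 2 of the 27 Bacillus control probe sets had a mean at or above its wild-type mean. Those controls differed between homozygous and wild-type arrays by -0.09 to 0.18, a range that the Tie1 difference exceeded. Most of the controls read lower than Tie1, with a median of 3.23, and Tie1 had the largest difference of the members. The range therefore does not gauge the noise at the level of Tie1. Tek, the only other member of the receptor pair, gave 5.26, 5.14 and 5.28 on the wild-type arrays, 5.33 and 5.31 on the heterozygous arrays, and 5.65, 5.22 and 5.12 on the homozygous arrays. Here homozygous array 1 stood alone, and homozygous array 3 was the lowest of all 8. The difference from wild type was 0.11 (SE 0.14, 95% interval -0.22 to 0.43), and it turned to -0.05 (SE 0.10) without homozygous array 1 and was 0.16 (SE 0.18) without heterozygous array 2 and homozygous array 2.

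The VEGF receptors did not separate by genotype. Kdr, the main signalling receptor for VEGF-A, gave 9.75, 9.77 and 9.83 on the wild-type arrays, 10.09 and 9.81 on the heterozygous arrays, and 10.24, 9.43 and 9.98 on the homozygous arrays. The homozygous arrays held both the highest and the lowest value of all 8, and the lowest was on homozygous array 2, whose Nxnl1 was at the wild-type level. Homozygous minus wild type came to 0.10 (SE 0.19, 95% interval -0.34 to 0.54) on all arrays. It was -0.08 (SE 0.17) without homozygous array 1 and 0.33 (SE 0.12, unadjusted limma p 0.0354, adjusted p 0.976) without heterozygous array 2 and homozygous array 2. Kdr is also made by neural cells of the retina, so its level in whole retina is not that of vessels alone.

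Flt1, which binds VEGF-A tightly and acts largely as a trap for it, gave 8.69, 8.47 and 8.13 on the wild-type arrays for its brightest probe set, 8.46 and 8.49 on the heterozygous arrays, and 8.79, 8.35 and 8.86 on the homozygous arrays. The groups overlapped, with wild-type array 3 the lowest and homozygous array 3 the highest. Homozygous minus wild type came to 0.24 (SE 0.18, 95% interval -0.16 to 0.64), and 0.40 (SE 0.18) without the 2 arrays whose Nxnl1 went against the label. The other 3 probe sets of Flt1 gave 0.12 (SE 0.13), 0.18 (SE 0.23) and -0.0049 (SE 0.26).

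Probe sets of the same gene did not always move together. The dimmest probe set of Flt1 read 5.55 on wild-type array 1 and 5.69 on homozygous array 1, and 6.12 to 6.56 on the other 6, while the 3 others were above their own mean on these 2 arrays. These 2 arrays are the ones with the lowest actin differences, and which transcript forms the probe sets read was not analysed here. For Cdh5, the dimmer probe set lay between 3.46 and 3.67 on all 8 arrays, within the range of the Bacillus controls, and differed between homozygous and wild type by -0.09 (SE 0.09), against 0.09 (SE 0.10) at the brighter.

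**Figure D2:**
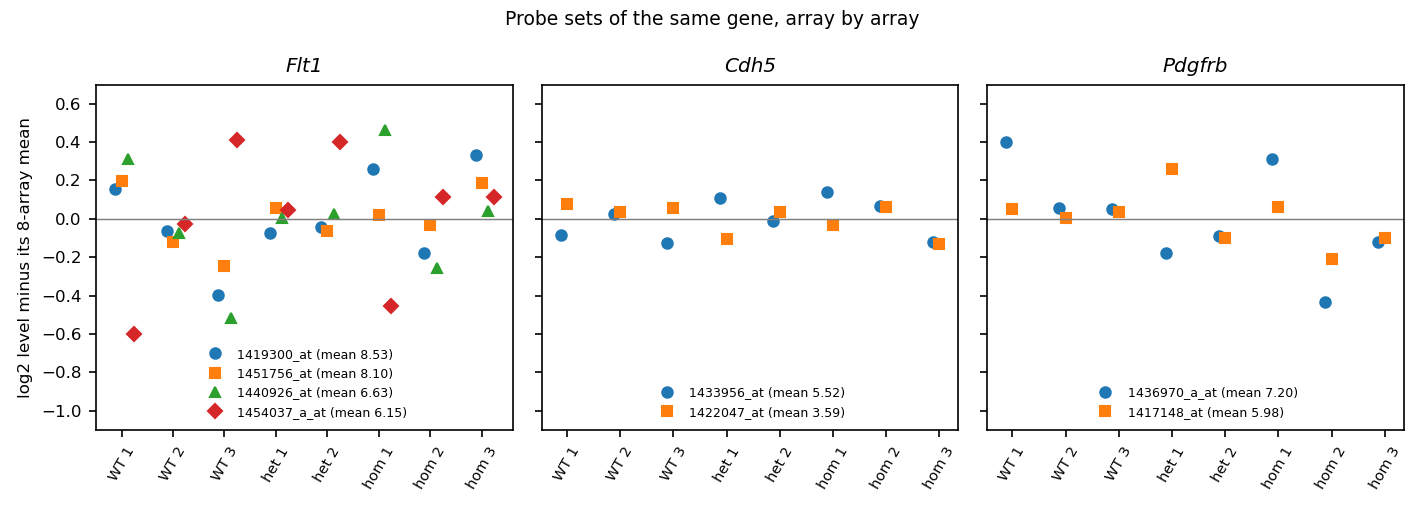
Log2 level of each probe set of Flt1, Cdh5 and Pdgfrb on the 8 arrays, minus its own mean over the arrays. The dimmest Flt1 probe set (red) is lowest on wild-type array 1 and homozygous array 1, where the brightest Pdgfrb probe set is highest.

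Among the junction and surface proteins, Cldn5, the main claudin of endothelial tight junctions, varied most. It gave 6.80, 6.90 and 7.15 on the wild-type arrays, 7.54 and 7.02 on the heterozygous arrays, and 7.67, 7.09 and 6.88 on the homozygous arrays. The 2 highest values belonged to heterozygous array 1 and homozygous array 1, and the next array, wild-type 3, read 7.15. Homozygous minus wild type came to 0.26 (SE 0.22, 95% interval -0.25 to 0.77) and was 0.03 (SE 0.18) without homozygous array 1, 0.43 without homozygous array 3 and 0.33 (SE 0.25) without heterozygous array 2 and homozygous array 2.

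Cdh5, the cadherin of endothelial adherens junctions, stayed within a narrow band, read at the brighter of its probe sets. It gave 5.43, 5.54 and 5.39 on the wild-type arrays, 5.63 and 5.50 on the heterozygous arrays, and 5.65, 5.59 and 5.40 on the homozygous arrays. The groups overlapped, and the difference was 0.09 (SE 0.10, 95% interval -0.14 to 0.32). It was 0.036 without homozygous array 1, 0.16 without homozygous array 3 and 0.071 without heterozygous array 2 and homozygous array 2.

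Pecam1, an adhesion molecule at endothelial contacts, gave 4.39, 4.96 and 4.87 on the wild-type arrays, 5.01 and 4.70 on the heterozygous arrays, and 4.96, 5.12 and 4.89 on the homozygous arrays. Wild-type array 1 stood apart as the lowest, and the remaining arrays ran into one another. Homozygous minus wild type came to 0.25 (SE 0.17), and it was 0.07 without wild-type array 1 and 0.18 (SE 0.19) without heterozygous array 2 and homozygous array 2.

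Emcn, a sialomucin of venous and capillary endothelium, gave 3.59, 3.38 and 3.59 on the wild-type arrays, 3.67 and 3.46 on the heterozygous arrays, and 3.78, 3.74 and 3.60 on the homozygous arrays. The lowest homozygous array lay above the highest wild-type array by a margin smaller than the spread within either group. The difference was 0.19 (SE 0.11, 95% interval -0.06 to 0.43, unadjusted limma p 0.121), close to the 0.18 reached by a Bacillus control, and 5 of the 27 control means lay at or above its wild-type mean. Without heterozygous array 2 and homozygous array 2 it was 0.17 (SE 0.12). Tie1 and Emcn were the 2 of 15 member probe sets whose homozygous arrays all lay above wild type, and none lay below. Over all probe sets the share was 2.63% higher and 1.84% lower.

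Vwf, the clotting glycoprotein stored in endothelial granules, was the endothelial member with a difference below 0. It gave 4.13, 4.21 and 4.28 on the wild-type arrays, 4.26 and 4.13 on the heterozygous arrays, and 4.33, 3.91 and 4.10 on the homozygous arrays. The homozygous arrays again held the highest and the lowest value, and the difference was -0.10 (SE 0.12, 95% interval -0.37 to 0.18). It was 0.0043 (SE 0.12) without heterozygous array 2 and homozygous array 2.

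Pdgfrb, through which pericytes are recruited and kept, gave 7.60, 7.26 and 7.25 on the wild-type arrays for its brighter probe set, 7.02 and 7.11 on the heterozygous arrays, and 7.51, 6.77 and 7.08 on the homozygous arrays. The heterozygous arrays lay below all wild-type arrays, and 2 of the 3 homozygous arrays did so as well. Homozygous minus wild type came to -0.25 (SE 0.19, 95% interval -0.68 to 0.18). It was -0.45 (SE 0.15, unadjusted limma p 0.0179, adjusted p not past the threshold) without homozygous array 1, -0.33 (SE 0.14, 95% interval -0.64 to -0.02, unadjusted limma p 0.0401) without wild-type array 1 and homozygous array 1, and -0.07 (SE 0.18) without heterozygous array 2 and homozygous array 2.

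The 2 highest Pdgfrb values were on wild-type array 1 and homozygous array 1, the arrays of lowest actin difference, and with that difference as a covariate the value was -0.26 (SE 0.11, 95% interval -0.50 to -0.02, unadjusted limma p 0.037). The dimmer probe set of Pdgfrb gave 6.03, 5.99 and 6.01 on the wild-type arrays, 6.24 and 5.88 on the heterozygous arrays, and 6.04, 5.77 and 5.88 on the homozygous arrays. There the highest array was heterozygous 1, which was the second lowest at the brighter probe set, and homozygous minus wild type came to -0.11 (SE 0.12).

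**Figure D3:**
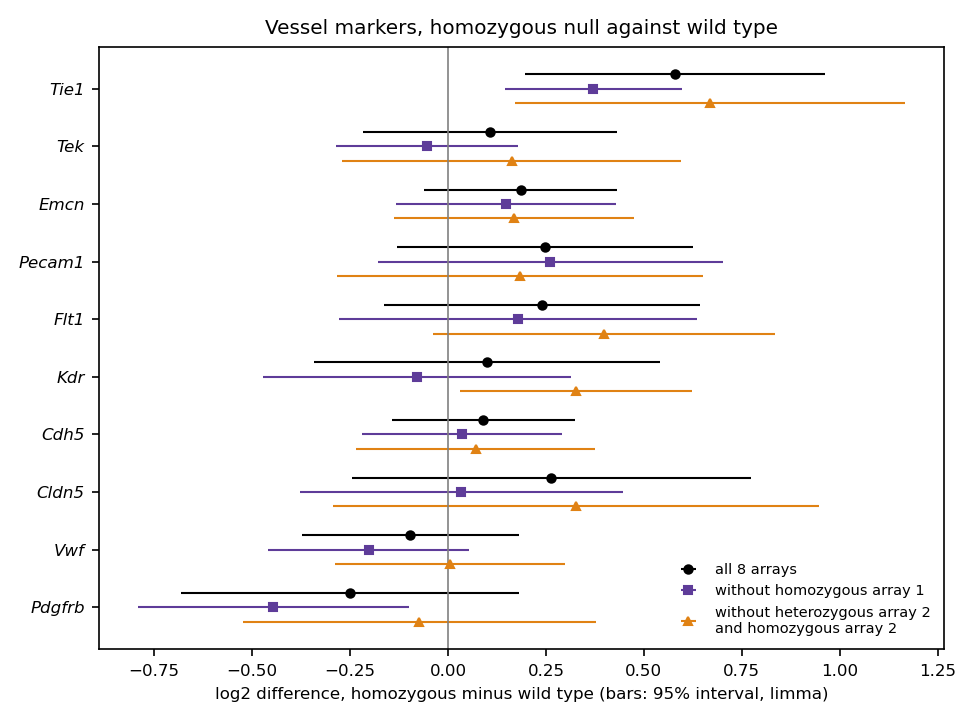
Log2 difference of homozygous against wild type for the 10 markers, at the brightest probe set, with 95% intervals from limma, on all 8 arrays and with arrays left out. The interval of Tie1 lies above 0 in all 3 fits drawn, that of Kdr lies above 0 in the one without heterozygous array 2 and homozygous array 2, and, of these fits, that of Pdgfrb lies below 0 in the one without homozygous array 1.

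As a list, 8 of 10 members had a difference of homozygous against wild type above 0, with a median of 0.15, against 60.5% of 18193 genes and a median of 0.02 over all genes. The exceptions were Vwf and Pdgfrb. None passed the adjusted threshold, and Tie1 alone had an unadjusted limma p under 0.05. Without homozygous array 1, 6 of 10 were above 0 with a median of 0.03, where the median over all genes was -0.01, and Tie1 (higher) and Pdgfrb (lower) had an unadjusted limma p under 0.05, as did 82 genes higher and 84 lower of 18193. Without heterozygous array 2 and homozygous array 2, 9 of 10 were above 0 with a median of 0.18, against 0.05 over all genes, and Tie1 and Kdr, both higher, had an unadjusted limma p under 0.05, as did 345 genes higher and 93 lower of 18193. Without wild-type array 1 and homozygous array 1, 5 of 10 were above 0 with a median of -0.0065, against 10010 of 18193 genes and a median of 0.01. There Tie1 (higher, p 0.00951) and Pdgfrb (lower, p 0.0401) had an unadjusted limma p under 0.05, as did 137 genes higher and 53 lower.

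The heterozygous group, which shares its wild-type arrays with the comparison above, held 2 arrays that differed for these genes. Heterozygous array 1 lay above the mean of the 6 arrays other than itself and homozygous array 1 for 7 of 10 members, by a median of 0.12, against 49.8% of all genes and a median of -0.00055. Its largest excess was 0.57 for Cldn5 and 0.33 for Kdr. Heterozygous array 2 was above the 8-array mean, which includes homozygous array 1, for 1 of 10 members. The mean level of the 10 members was 5.92 on heterozygous array 2, close to the 5.93 to 5.94 of the wild-type arrays. The differences of heterozygous against wild type ran from -0.30 (SE 0.21) for Pdgfrb to 0.33 (SE 0.25) for Cldn5, with 8 of 10 above 0 and a median of 0.07, against 47.6% of all genes and a median of -0.0067. The Cldn5 value was 0.071 without heterozygous array 1 and 0.59 without heterozygous array 2. Without heterozygous array 2 and homozygous array 2, the member differences lay above 0 for 9 of 10 and had a median of 0.13, against 8829 of 18193 genes and a median of -0.0048, and heterozygous array 1 was then the only array of its group.

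No member had an unadjusted limma p under 0.05 for heterozygous against wild type, where 516 probe sets (1.15%; 0.511% higher and 0.635% lower) did and 0 (0%) passed after adjustment. Tek was higher on both heterozygous arrays than on every wild-type array, by a difference of 0.10 (SE 0.16), and the brighter probe set of Pdgfrb was lower. Over all probe sets 7.03% were higher and 7.2% lower in this way. For homozygous against heterozygous, Tie1 differed by 0.54 (SE 0.19, unadjusted limma p 0.0204, adjusted p 0.99998) with no overlap of the groups, against 6.75% of all probe sets that were higher and 5.68% that were lower without overlap. Of 45037 probe sets, 405 (0.899%; 0.537% higher and 0.362% lower) had an unadjusted p under 0.05 there and 0 (0%) passed after adjustment. The other 9 members differed by between -0.08 and 0.20, and 6 of 10 were above 0 with a median of 0.03, against 63.7% of all genes and a median of 0.03. Without heterozygous array 2 and homozygous array 2, Tie1 differed by 0.60 (SE 0.27, 95% interval -0.07 to 1.27) with an unadjusted limma p of 0.0698, so it was no longer under 0.05. In that fit the member differences lay above 0 for 6 of 10 and had a median of 0.02, against 11303 of 18193 genes and a median of 0.06, and the lone heterozygous array is assumed to vary like the other groups.

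Over the 8 arrays, 38 of the 45 pairs of members had a Pearson correlation above 0, with a median of 0.41 and a range of -0.65 to 0.83. The pair most alike was Tek with Cldn5 and the pair least alike Pecam1 with Pdgfrb. Pecam1 and Pdgfrb were also the members least like the mean of the others, with r of 0.15 and 0.19, whereas Tek and Cldn5 had 0.83 each. All pairs share the same 8 RNA samples. Outside the list, and among 10613 genes with a mean level above the median of all probe sets, the 6 with a profile most like the mean of the members' standardized profiles were Pald1 (r = 0.96), G6pc3 (0.96), Elmo3 (0.96), Kank2 (0.96), Tbc1d10a (0.96) and Klc1 (0.95). Kank2 read 6.59 to 6.70 in wild type, 6.83 and 6.61 on the heterozygous arrays and 7.42, 6.68 and 6.84 in the homozygous group, and Pald1 read 6.37 to 6.42, 6.49 and 6.32, and 6.68, 6.32 and 6.41. In both, homozygous array 1 was highest and heterozygous array 1 was among the next 2.

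A wider list of 30 endothelial genes, of which 29 were measured, had the same arrays at the top. Its mean level was 6.44 on homozygous array 1 and 6.28 on heterozygous array 1, and 6.05 to 6.19 on the other 6. The lowest was 6.05 on homozygous array 3, against 6.10 to 6.18 on the wild-type arrays. Homozygous array 1 was the highest array for 16 of 29 (55.2%). Against wild type, 23 of 29 were above 0 in the homozygous group, with a median of 0.08, and 0 passed. Without homozygous array 1 the count was 15 of 29 and the median 0.0053.

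By unadjusted p the leading genes of that list were Ptprb, a phosphatase that acts on Tek, Abcb1a, the drug efflux pump of the barrier, Nos3, the endothelial nitric oxide synthase, and the adhesion receptor Adgrf5. Ptprb gave 6.56, 6.61 and 6.55 on the wild-type arrays, 6.96 and 6.71 on the heterozygous arrays, and 6.95, 6.82 and 6.70 on the homozygous arrays. Every array with a null allele by its label lay above every wild-type array, though heterozygous array 1 and homozygous array 2 had Nxnl1 at the wild-type level. Over all probe sets, 2.63% were higher without overlap in the homozygous group and 7.03% in the heterozygous group. The differences were 0.25 (SE 0.11, unadjusted limma p 0.0445, adjusted p 0.9999) for homozygous and 0.27 (SE 0.12) for heterozygous against wild type. Abcb1a differed by 0.31 (SE 0.17), Nos3 by 0.23 (SE 0.14) and Adgrf5 by 0.28 (SE 0.18) in the homozygous group, and by 0.14, 0.08 and 0.09 without homozygous array 1.

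Mural cell genes, those of pericytes and vascular smooth muscle, were above 0 for 15 of 20 in the homozygous group, with a median of 0.08 and 0 past the threshold. Pdgfrb lay on the other side. Tagln, a contractile protein of smooth muscle, gave 6.26, 6.26 and 6.21 on the wild-type arrays and 6.37, 6.44 and 6.45 on the homozygous arrays, a difference of 0.18 (SE 0.08). Rgs5, a regulator of G protein signalling abundant in pericytes, gave 9.15, 9.23 and 9.15 on the wild-type arrays, 9.56 and 9.37 on the heterozygous arrays, and 10.10, 8.99 and 9.34 on the homozygous arrays, and its difference of 0.30 (SE 0.24) turned to -0.01 without homozygous array 1. The receptor Notch3 differed by 0.13 (SE 0.09) and Tbx18, a transcription factor, by -0.20 (SE 0.12).

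The ligands and co-receptors of the member receptors showed little shift, with 8 of 15 above 0, a median of 0.01 and 0 past the threshold in the homozygous group. Their members of smallest p were the angiopoietin Angpt4 at -0.15 (SE 0.10), the extracellular protein Svep1 at 0.14 (SE 0.11), the lymphatic VEGF receptor Flt4 at 0.15 (SE 0.20) and the VEGF family ligand Pgf at -0.06 (SE 0.09). Genes of the hypoxia response, with Vegfa among them, had 8 of 14 above 0 and a median of 0.01. Their members of smallest p, Ankrd37, Ndrg1, Egln1 and Bnip3, differed by -0.08 to 0.07.

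In the Norrin and Notch signalling list, 9 of 14 were above 0 with a median of 0.06. Lef1, a transcription factor through which Norrin and Wnt signals act in barrier endothelium, gave 5.46, 5.36 and 5.25 on the wild-type arrays, 5.75 and 5.42 on the heterozygous arrays, and 5.67, 5.64 and 5.64 on the homozygous arrays. The homozygous arrays lay close together and above wild type, with no overlap, a difference of 0.29 (SE 0.11), and one of 0.28 without homozygous array 1. The Norrin receptor Fzd4 differed by -0.29 (SE 0.23), the co-receptor Lrp5 by -0.14 (SE 0.12) and the Notch ligand Dll4 by 0.10 (SE 0.09).

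Of the vessel basement membrane genes, 7 of 10 were above 0 with a median of 0.07. Col4a2, a chain of type IV collagen, gave 7.59, 7.78 and 7.72 on the wild-type arrays and 7.97, 7.78 and 8.14 on the homozygous arrays, with overlapping groups, a difference of 0.27 (SE 0.11) and the same 0.27 without homozygous array 1. Its partner chain Col4a1 differed by 0.24 (SE 0.20), and the nidogens Nid1 and Nid2 by 0.34 (SE 0.29) and -0.18 (SE 0.09). Junction and barrier genes other than the members had 6 of 13 above 0 and a median of -0.0076. There F11r differed by 0.11 (SE 0.09), Cgn by -0.10 (SE 0.08), Cavin1 by 0.19 (SE 0.21) and Gja1 by 0.35 (SE 0.40). None of these lists had a member past the adjusted threshold.

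Markers of other cells were set beside the vessel genes array by array. The 10 lens genes averaged 5.38 to 7.81 in wild type, 5.52 and 7.89 on the heterozygous arrays and 5.27 to 8.99 in the homozygous group, and all 10 were highest on homozygous array 1. On wild-type array 1, heterozygous array 2 and homozygous array 3, where the lens mean was also raised at 7.81, 7.89 and 7.61, the endothelial members averaged 5.75, 5.79 and 5.87, against 6.19 on homozygous array 1 and 5.97 on heterozygous array 1, whose lens mean was 5.52. Microglial genes averaged 6.57 on homozygous array 1 and 6.53 on heterozygous array 2, and 6.02 to 6.34 on the others, with 10 of 12 above 0 in the homozygous group.

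Platelet genes, which share Vwf and Pecam1 with endothelium, averaged 5.41 to 5.42 in wild type, 5.37 and 5.47 on the heterozygous arrays and 5.41 to 5.54 in the homozygous group. The 6 measured red cell genes averaged 4.85 to 5.01, 4.92 to 4.96 and 4.86 to 4.98, with the haemoglobin gene Hba-a1 at 3.75 to 3.97 on all 8 arrays, among the higher Bacillus controls. Fibroblast genes averaged 5.63 to 6.12, 5.72 to 5.78 and 5.68 to 5.88. The 10 pigment epithelium and melanocyte genes averaged 7.81 to 8.35, 7.65 to 7.71 and 7.77 to 8.17, with 1 of the 10 highest on homozygous array 1. Of these, 9 lay below 0 for heterozygous against wild type (median -0.54), against 9526 of 18193 genes. For homozygous against wild type 8 did (median -0.12), against 7186 genes. Rpe65 read from 9.16 on homozygous array 3 to 10.48 on wild-type array 2. Whether vessels from outside the retina came with the pigment epithelium was not tested. The 5 measured genes listed for retinal astrocytes, cells that line the superficial vessels, averaged 7.69 to 8.54, 7.75 to 8.05 and 7.89 to 8.37. Those of Müller glia averaged 10.39 to 10.55, 10.38 to 10.50 and 10.39 to 10.55. Pax2 of the astrocyte list was not measured and Slc1a3 is in both lists, so the astrocyte mean does not stand for astrocytes alone. The part of these cells in the vessel values was not tested.

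**Figure D4:**
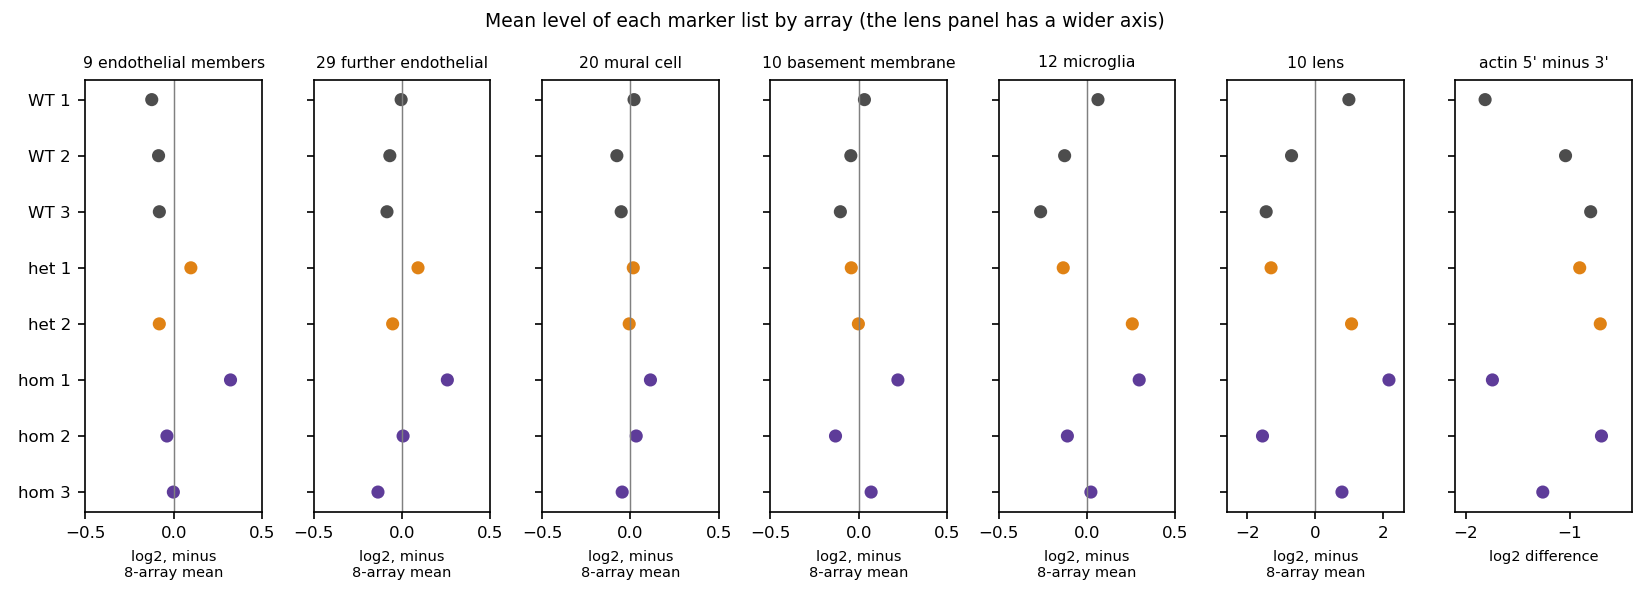
Mean log2 level of 6 marker lists on each array, minus the list's mean over the 8 arrays, and the actin 5' minus 3' difference. Endothelial lists are highest on homozygous array 1 and next on heterozygous array 1, lens genes are high on homozygous array 1, heterozygous array 2, wild-type array 1 and homozygous array 3, and the actin difference is lowest on wild-type array 1 and homozygous array 1.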

How the data were processed

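Total RNA of mouse retina was measured on Affymetrix 3' expression arrays, 1 per sample. The deposited table holds log2 expression values made with RMA by the authors, per the submitters' processing notes; its version, its settings and which arrays were normalized together: not given in the sources used here, and the ninth sample of the design text was not analysed here. RMA as usually run includes quantile normalization, which makes each change relative to the bulk of transcripts. The 64 control probe sets were left out of the tests and 45037 were fitted in 1 model of 3 group means on 8 arrays (limma 3.58.1, R 4.3.3, eBayes, two-sided, Benjamini-Hochberg over all probe sets, threshold 0.05, 5 residual degrees of freedom). SE is limma's moderated standard error. No detection calls were used, and the number of arrays limits the precision.

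Symbols came from the platform annotation, updated through gene identifiers for 34741 of 34945 probe sets with 1 symbol; 932 with several and 9160 without were not named. Lists used the probe set of highest mean for each gene, and 191 of 201 entries in 16 lists beside the members were measured. All 10 members are named; other lists name up to 4 genes by smallest unadjusted p for homozygous against wild type, and 6 genes were named by likeness, after leaving out names that are clone or locus codes, a step the written rule did not give. In lists of other cell types most such genes are left to the counts. The members and lists were chosen with earlier results of these data known. The fits were tested on simulated data. Alternatives covered normalization, dim probe sets, the variance model, array weights, the replicate block, RNA quality and arrays left out.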

Additional observations from a re-analysis of the deposited data

How the results depend on the processing

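No member passed the adjusted threshold under any setting run. Of 124 member values under other settings in each comparison, 6 turned direction for homozygous against wild type, 7 for heterozygous against wild type and 11 for homozygous against heterozygous. Without wild-type array 1 and homozygous array 1 the members' median was -0.0065 for homozygous against wild type and -0.11 for homozygous against heterozygous. For homozygous against wild type, in log2 differences, that setting gave -0.038 for Tek, -0.096 for Kdr and -0.041 for Cldn5, array weights gave -0.075 for Cdh5, the mean of all probe sets gave -0.000068 for Cdh5, and leaving out the arrays labelled heterozygous 2 and homozygous 2 gave 0.0043 for Vwf. For heterozygous against wild type, Pecam1 was -0.060 with array weights, -0.017 with the actin covariate and -0.062 without the arrays of lowest actin difference. Vwf was 0.0035 with the replicate block, 0.051 without the arrays against their label and 0.043 with the actin covariate, and Tie1 was -0.035 with the replicate block. For homozygous against heterozygous, Cdh5 was 0.014 after repeated quantile normalization, 0.025 with array medians made equal and 0.033 with the replicate block. Tek was -0.14 with array weights, -0.080 with the actin covariate and -0.15 without the arrays of lowest actin difference. Pecam1 was -0.087 and Kdr 0.017 without the arrays against their label. Pdgfrb was -0.17 with the actin covariate, -0.14 without the arrays of lowest actin difference and -0.054 as the mean of its probe sets. The cause was not tested.

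Leaving out 1 array at a time, the members' median ran from 0.03 to 0.19, 0.03 to 0.13 and -0.11 to 0.12 in the 3 comparisons, in that order, and the count of called probe sets from 0 to 1, 0 to 1 and 0 to 0. The 1 call came without wild-type array 3, was the same unnamed probe set in both comparisons with wild type, and was no member. It was then higher than wild type by 6.29 in the homozygous group (limma adjusted p 0.0118). In the heterozygous group it was higher by 6.44 (limma adjusted p 0.0195). What sets wild-type array 3 apart from the other wild-type arrays at this probe set, the sex of the animals included, was not tested. For homozygous against wild type, Tek ran from -0.054 to 0.21, Kdr from -0.079 to 0.33 and Vwf from -0.20 to 0.0043. For heterozygous against wild type, Emcn ran from -0.057 to 0.15, Pecam1 from -0.062 to 0.27, Flt1 from -0.10 to 0.17 and Vwf from -0.075 to 0.051. For homozygous against heterozygous, Tek ran from -0.15 to 0.11, Pecam1 from -0.023 to 0.29, Kdr from -0.25 to 0.16, Cdh5 from -0.081 to 0.055, Cldn5 from -0.32 to 0.19, Vwf from -0.19 to 0.016 and Pdgfrb from -0.14 to 0.23.

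Deviations from the group means correlated at 0.62, 0.23 and -0.03 between same-numbered wild-type and homozygous arrays. The heterozygous arrays gave -0.09 and -0.25 with wild type, and -0.23 and -0.21 with homozygous. The pair at 0.62 is the 2 arrays of lowest actin difference, and these values cannot tell whether the numbers pair the samples. With the replicate block limma called 0 probe sets, with 336, 829 and 1028 at an unadjusted p under 0.05. A filter on dim probe sets kept 4 members, Flt1, Kdr, Cldn5 and Pdgfrb. Tie1, Emcn, Vwf and Pecam1 lie near the low end of the scale, which limits what their values show.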
